A study of Mus musculus with 16 samples.

Results

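*Adamts19*, *Klhl1* and *Chodl* are 3 of the 17362 genes listed for the pituitary of female mice, and they were chosen by their measured values, as large genotype differences outside the hormone genes. Pituitaries of 16 females at 27 weeks of age were profiled by bulk RNA-seq, with 1 library per mouse and 4 mice in each of 4 groups. Controls carried *Esr1* fl/fl, an allele that Cre can delete, and mutants (*Esr1* Nkx2.1-cre) also carried Nkx2.1-cre, which removes oestrogen receptor alpha (ERα) from cells with a history of *Nkx2-1* expression. Each genotype was fed either standard diet (SD, chow in the labels) or a high-fat diet (HFD) for 17 weeks. All mice were of a mixed CD-1 and 129P2 background. The Cre is not specific to the pituitary, since *Nkx2-1* marks the ventral forebrain, including the tissue that gives rise to the posterior lobe, so the gland held cells with and without the deletion. Levels are given as normalized expression signal, and the labels do not say whether it is scaled by transcript length.

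The 3 genes belong to different protein families. *Adamts19* encodes a secreted zinc metalloproteinase with thrombospondin repeats, from a family that cuts and organises extracellular matrix, and it is best known for its part in heart valve development. *Klhl1* encodes a Kelch-like protein that binds actin and is expressed mainly in neurons, where it modulates voltage-gated calcium channels. *Chodl* encodes chondrolectin, a membrane protein with a C-type lectin domain that marks fast motor neurons and takes part in the outgrowth of their axons. ERα is a transcription factor that binds oestrogen, and in the anterior pituitary it acts in lactotrophs, where it drives growth and prolactin expression, and in gonadotrophs.

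Because the genotype removes a DNA-binding receptor, the bases before the starts of *Klhl1* and *Chodl* are shown, as given by RefSeq for GRCm38.p6, where 2 of the 3 genes were matched. The *Klhl1* sequence is chr14:96519103-96519284 on the minus strand, limited to the 182 bases upstream of both its RefSeq and its GENCODE start. The *Chodl* sequence is chr16:78930698-78930947 on the plus strand. Capitals mark a TATA-like match.
Klhl1: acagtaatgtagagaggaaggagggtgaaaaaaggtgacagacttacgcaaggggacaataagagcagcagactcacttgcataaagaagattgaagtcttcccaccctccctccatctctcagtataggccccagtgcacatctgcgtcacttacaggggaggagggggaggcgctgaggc
Chodl: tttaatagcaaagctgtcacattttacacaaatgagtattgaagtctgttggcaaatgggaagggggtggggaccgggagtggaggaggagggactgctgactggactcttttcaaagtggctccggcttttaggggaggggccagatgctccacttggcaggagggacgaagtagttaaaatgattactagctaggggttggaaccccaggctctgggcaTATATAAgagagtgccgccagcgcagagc

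The motifs were searched on both strands of windows from 250 bases before to 50 bases after the RefSeq start. The full oestrogen response element, GGTCANNNTGACC, was in 0.0700% of 32851 such promoters and in neither of the *Klhl1* and *Chodl* windows. The shorter core of this element, GGTCA, which the full element contains, was in 40.5% of promoters and also in neither window. The TATA-like letters TATANAA were in 11.3% of promoters, and in *Chodl* they began at base 222 of the window, just upstream of the start. The *Klhl1* window held TATANAA only downstream of the RefSeq start, at base 293. GC content was 47% for *Klhl1* and 52.7% for *Chodl*, beside a median of 52.7% over all promoters.

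Some libraries stood apart, in measures looked at with earlier results of these data known. *Prl*, the prolactin gene of lactotrophs, made up 28.8% to 40.6% of the summed signal in every mouse. Marker scores, the mean log2 signal of a list, were low for the intermediate lobe in P357, a mutant on SD (1.34), and in P392, a control on HFD (2.71), against 4.15 to 5.01 in the other mice. Posterior lobe scores in the same 2 mice were 0.898 and 0.827, against 2.36 to 2.87. How much of these lobes each sample held was not tested. P357 also had 533 genes at 0 and a summed mitochondrial signal of 119409, while the other mice had 32247 to 49368. *Esr1*, the targeted gene, was 38.9 ± 7.32 in controls and 18.6 ± 5.77 in mutants on SD (SD, n = 4 each), and 37.3 ± 9.29 and 29.0 ± 5.53 on HFD, where the groups overlapped.

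*Adamts19* was low in controls and many fold higher in mutants on both diets. The gene (ENSMUSG00000053441) lies on chromosome 18 from 58836667 to 59054060 on the plus strand of GRCm38, with 23 exons in its principal transcript of 5145 bp, and GENCODE M21 lists no gene overlapping it. Among controls on SD its signal was 1.15 in P356, 0.396 in P358, 0.112 in P359 and 0.163 in P383. Mutants on SD had 12.0 in P357, 8.87 in P381, 11.6 in P382 and 5.71 in P384. Every mutant on SD was thus above every control, and the group means were 0.454 ± 0.477 and 9.53 ± 2.90 (SD, n = 4 each), a ratio of 21.0. Without P356, the highest control, the control mean was 0.224 ± 0.151 (SD, n = 3) and the ratio 42.6. On HFD the controls had 0.939 in P385, 0.197 in P390, 0.130 in P391 and 2.85 in P392. The mutants on HFD had 5.29 in P339, 7.95 in P341, 6.52 in P387 and 3.72 in P388. These groups did not overlap either, with means of 1.03 ± 1.27 and 5.87 ± 1.80 (SD, n = 4 each) and a ratio of 5.71. P392 set this ratio to a large extent: without it the control mean was 0.422 ± 0.449 (SD, n = 3) and the ratio 13.9.

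**Figure D1:**
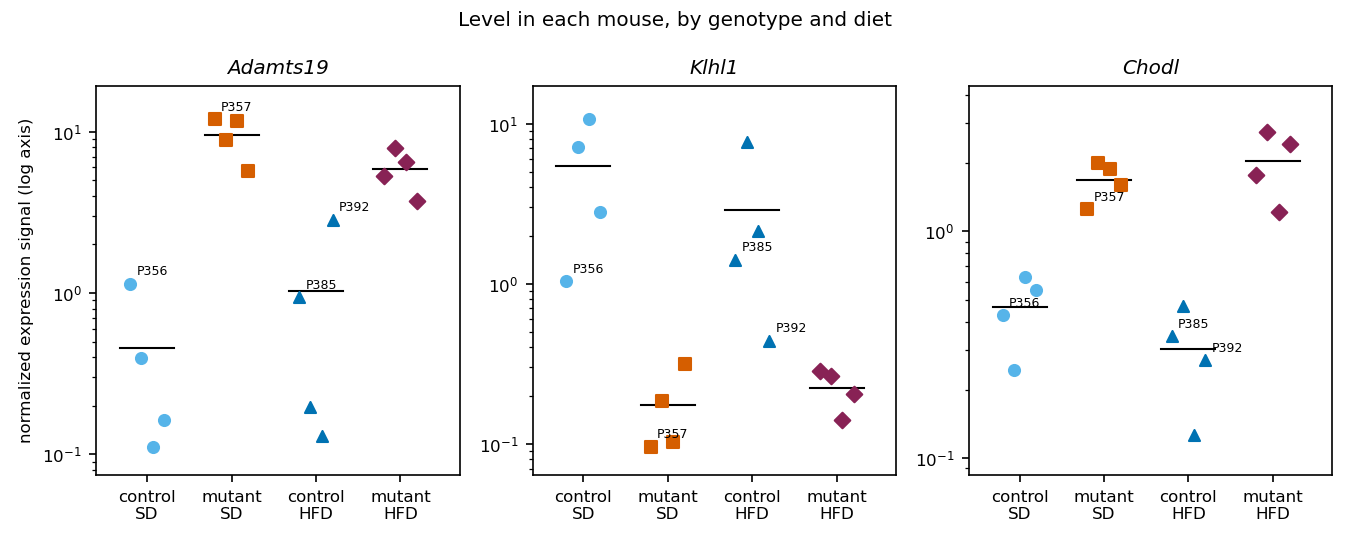
Normalized expression signal (log axis) of *Adamts19*, *Klhl1* and *Chodl* in each of 16 mice, by genotype and diet. Each point is 1 mouse, horizontal lines are group means, and P356, P357, P385 and P392 are named. All 8 mutants lie above all 8 controls for *Adamts19* and *Chodl* and below them for *Klhl1*, and P392 is the control nearest to the mutants for *Adamts19* and *Klhl1*.

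*Klhl1* had the reverse pattern, with appreciable but uneven signal in controls and little in mutants. The gene (ENSMUSG00000022076) spans chromosome 14 from 96102736 to 96519102 on the minus strand of GRCm38, with 1 annotated transcript of 6645 bp in 11 exons. A processed pseudogene (*Gm15515*) and a small nuclear RNA gene (*Gm24043*) lie on the opposite strand within its span, and the use of strand in the quantification is not given in the sources used here. Controls on SD had 1.04 in P356, 7.13 in P358, 10.7 in P359 and 2.80 in P383. In mutants on SD the signal was 0.0957 in P357, 0.185 in P381, 0.102 in P382 and 0.315 in P384. All 4 controls exceeded all 4 mutants, and their means were 5.43 ± 4.37 and 0.174 ± 0.102 (SD, n = 4 each), which is 31.1-fold lower in mutants. Controls on HFD had 1.42 in P385, 7.63 in P390, 2.13 in P391 and 0.441 in P392. The mutants on HFD lay close together, at 0.284 in P339, 0.266 in P341, 0.141 in P387 and 0.206 in P388. Again the groups did not overlap, with means of 2.90 ± 3.22 in controls and 0.224 ± 0.0649 in mutants (SD, n = 4 each), 12.95-fold lower in mutants. P390 weighed most on this fold: without it the control mean was 1.33 ± 0.850 (SD, n = 3) and the fold 5.93, while without P392 the fold was 16.6.

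The low *Klhl1* values of mutants were above the level of a few reads. Among 1426 genes with a single transcript, 88 to 138 low signals per library were used to estimate the size of 1 read. The signal was taken to be scaled by transcript length, which the labels do not state. The step was chosen for a large share of the low signals on whole multiples (within 0.1 read). At the chosen step 82.2% to 91.5% lay there, which is thus no independent check. By that step, *Klhl1* rested on an estimated 9.80 to 31.2 reads in mutants and 41.0 to 1103 in controls. A count of 3 reads would have been worth 0.0213 to 0.0323 units of signal. *Adamts19* and *Chodl* have several transcripts, and no such estimate was made for them.

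*Chodl* was higher in mutants on both diets, and on SD it differed by a smaller factor than the other members. The gene (ENSMUSG00000022860) lies on chromosome 16 from 78930948 to 78951733 on the plus strand of GRCm38, with 6 exons in its principal transcript of 2535 bp. It has 5 annotated transcripts, 4 of them coding. Its transcripts share at least 100 bp at 90% identity or more with 22 other genes, so reads there could be split between genes. No such stretch was shared between its coding transcripts and coding transcripts of other genes. Matches of its coding transcripts to noncoding transcripts of other genes were not counted separately. Controls on SD had 0.427 in P356, 0.244 in P358, 0.627 in P359 and 0.549 in P383. For mutants on SD the values were 1.25 in P357, 2.01 in P381, 1.89 in P382 and 1.61 in P384. The lowest mutant was thus well above the highest control, and the means were 0.462 ± 0.167 and 1.69 ± 0.338 (SD, n = 4 each), a ratio of 3.66. Controls on HFD had 0.345 in P385, 0.467 in P390, 0.126 in P391 and 0.270 in P392. Mutants on HFD had 1.78 in P339, 2.74 in P341, 1.21 in P387 and 2.43 in P388. This was the wider of the differences for *Chodl*, at 0.302 ± 0.143 in controls and 2.04 ± 0.680 in mutants (SD, n = 4 each), a ratio of 6.76. P392, which lay nearest to the mutants for *Adamts19* and *Klhl1*, had a *Chodl* value like those of the other controls.

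Since the members were chosen by these genotype differences, the fit across all genes describes their size and is no test of them. With limma on log2(signal + 0.5), a scale that understates changes of low genes, the mutant minus control difference on SD was 3.46 (SE 0.46) for *Adamts19*, -2.77 (SE 0.59) for *Klhl1* and 1.19 (SE 0.25) for *Chodl*. These were the 7th, 39th and 425th differences in size among the 14345 genes with a mean signal of at least 1. On HFD the differences were 2.36 (SE 0.46), -1.79 (SE 0.59) and 1.64 (SE 0.25), in the same directions. At an adjusted p under 0.05 (limma, Benjamini-Hochberg), 1.84% of all tested genes passed on SD, 196 higher and 68 lower in mutants, the members among them. On HFD 0% passed, members included, while 1461 genes had an unadjusted p under 0.05. In 16 fits that each left out 1 mouse, *Adamts19* passed on SD in all 16, *Klhl1* in 9 and *Chodl* in 10. The HFD result turned on P392, without which 649 genes passed, all 3 members among them, and *Chodl* also passed on HFD without P387. All 3 members passed the filter on low values only through 1 genotype: *Adamts19* and *Chodl* through the mutants and *Klhl1* through the controls.

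The 8 mutants and the 8 controls did not overlap for any of the 3 members. Over all tested genes, 10.6% had no overlap between genotypes on SD and 5.30% on HFD. No overlap of all 8 mutants with all 8 controls was found for 0.432%, or 62 genes, of which 40 were higher and 22 lower in mutants. For *Adamts19* the nearest values were 3.72 in P388 and 2.85 in P392, and for *Klhl1* 0.315 in P384 and 0.441 in P392. Without P357 and P392, chosen for their lobe scores after the data had been seen, 880 genes (6.13%) did not overlap, the members included. Over 8 mice each, the mutant means were 7.70 ± 2.97 for *Adamts19*, 1.87 ± 0.531 for *Chodl* and 0.199 ± 0.0835 for *Klhl1* (SD). The control means were 0.741 ± 0.937, 0.382 ± 0.167 and 4.17 ± 3.80.

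Some lists of markers of other cell types moved with genotype, and others overlapped widely between genotypes. Lactotroph scores were 8.48 to 8.97 in controls and 8.30 to 8.91 in mutants. Somatotroph scores were 9.20 to 9.88 and 9.37 to 10.1, and gonadotroph scores 5.81 to 7.11 and 5.72 to 6.59. Corticotroph and fibroblast scores overlapped as well. Thyrotroph scores were 4.13 to 4.60 in controls other than P358 (4.93) and P392 (4.85), and 4.78 to 5.31 in mutants. Stem and folliculostellate scores were 3.27 to 3.66 in controls and 3.54 to 3.98 in mutants. The 4 endothelial markers summed to 80.1 to 106.5 in controls other than P392, 155.0 in P392 and 127.8 to 179.5 in mutants. The 4 immune markers summed to 22.9 to 47.9 in controls other than P392, 79.0 in P392 and 46.2 to 122.5 in mutants. Neuronal scores, over 5 markers with sums of 277.2 to 299.3 in controls and 278.5 to 347.1 in mutants, were 3.88 to 4.25 in controls other than P392 (4.76) and 4.58 to 4.93 in mutants other than P357 (4.11). A list of 4 genes that oestrogen induces in the pituitary (*Prl*, *Gal*, *Pgr* and *Greb1*) summed to 262517 to 441569 in controls and 296246 to 500879 in mutants. Its score was 8.28 to 8.84 in 5 controls, 9.87 in P356, 9.48 in P385 and 10.3 in P392, and 9.93 to 10.3 in mutants. No gene of the endothelial, immune, neuronal and oestrogen-induced lists was at 0 in any mouse. The part of these cell types in the differences of *Adamts19*, *Klhl1* and *Chodl* was not tested. In bulk tissue, fewer cells of a type and less RNA per cell cannot be told apart.

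The effect of the diet, which the choice of genes did not use, was tested within each genotype, although the SD mice entered that choice too. No diet difference of the 3 members passed. Among controls on SD only P383 shared its animal-number range with the controls on HFD, so diet and range were largely mixed there. In controls, *Adamts19* differed between HFD and SD by 0.46 (95% interval -0.53 to 1.44, adjusted p = 0.999 from limma), with overlapping groups. *Klhl1* differed in controls by -0.87 (-2.13 to 0.38, adjusted p = 0.998 from limma) and *Chodl* by -0.26 (-0.79 to 0.27, adjusted p = 0.998 from limma). The diets overlapped for all 3 genes, and P391 on HFD had the lowest *Chodl* value of all mice. Over all genes 0% passed in controls, with 592 at an unadjusted p under 0.05.

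In mutants, *Adamts19* was 5.71 to 12.0 on SD and 3.72 to 7.95 on HFD, a difference of -0.65 (95% interval -1.63 to 0.33, adjusted p = 0.813 from limma). *Klhl1* differed in mutants by 0.11 (-1.14 to 1.37, adjusted p = 0.974 from limma) and *Chodl* by 0.19 (-0.35 to 0.72, adjusted p = 0.887 from limma). All of these ranges overlapped. For this comparison 0% of all genes passed, and 717 had an unadjusted p under 0.05. Groups that did not overlap between diets made up 2.61% of genes in controls and 3.31% in mutants, none of them members. Two-sided exact permutation tests of 4 against 4 mice, which cannot go below p = 0.0286, gave p = 0.114 for *Adamts19* in mutants and 0.229 to 0.6 for the other 5 comparisons, and after adjustment over the 6 the exact p was 0.557 to 0.6.

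The change of the genotype difference with diet did not pass for any member. It is built from the genotype differences that chose the members, so it is no independent test. The interaction, the genotype difference on HFD minus that on SD, was -1.10 for *Adamts19* (SE 0.65), 0.98 for *Klhl1* (SE 0.84) and 0.45 for *Chodl* (SE 0.35). Each had an adjusted p of 0.924 (limma), with 95% intervals of -2.49 to 0.28, -0.79 to 2.76 and -0.30 to 1.20. For *Adamts19* and *Klhl1* the difference was the smaller on HFD in size, and for *Chodl* it was the larger, none beyond its interval. Over all genes 0% passed the interaction, with 602 at an unadjusted p under 0.05.

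**Figure D2:**
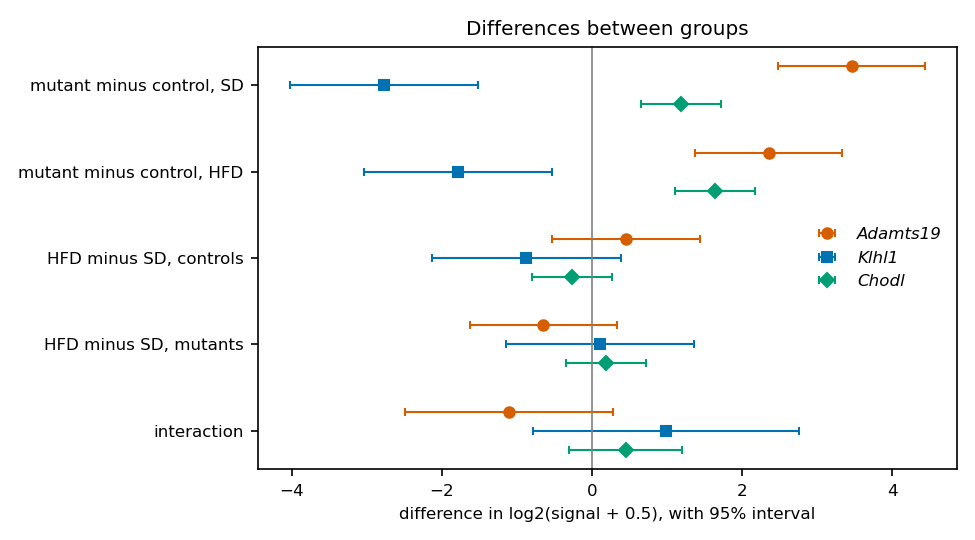
Difference in log2(signal + 0.5) for *Adamts19*, *Klhl1* and *Chodl* (horizontal axis) in the 5 comparisons (vertical axis), with limma's 95% intervals over 16 mice. The genotype differences chose the genes and are a description, and all diet and interaction intervals include 0.

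Within controls, *Adamts19* and *Klhl1* varied in opposite directions from mouse to mouse. The 3 controls with the highest *Adamts19*, P356, P385 and P392, were also the 3 with the lowest *Klhl1*, and they came from both diets. These mice also had the 3 highest scores of oestrogen-induced genes among controls, as given above. Over the 8 controls Pearson's r of the log2 values was -0.80 (exact permutation p = 0.0176, adjusted p = 0.106 over 6 relations) and Spearman's rho was -0.79 (exact permutation p = 0.0279, adjusted p = 0.138). After centring within each diet r was -0.78 (exact permutation p = 0.0417, adjusted p = 0.25). Without P356 and P392, the mice farthest from the median of *Adamts19*, r was -0.49 over 6 mice, so the relation rests on those mice. It was looked at after the values were seen, and it did not pass the adjustment.

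Over the 8 mutants the same pair had r = -0.65 (exact permutation p = 0.0866, adjusted p = 0.260) and rho = -0.74 (exact permutation p = 0.0458, adjusted p = 0.138). After centring within each diet r was -0.59 (exact permutation p = 0.172, adjusted p = 0.516), and within the 4 mutants of each diet, too few to test, it was -0.999 on SD and 0.08 on HFD. *Chodl* did not follow this pattern. Its r with *Adamts19* was -0.24 in controls and -0.28 in mutants, with exact permutation p = 0.567 and 0.503 over 8 mice each. With *Klhl1* its r was 0.39 and 0.43, with exact permutation p = 0.328 and 0.282. The *Chodl* values of P356, P385 and P392 were 0.427, 0.345 and 0.270, inside the span of the other controls, 0.126 to 0.627.

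**Figure D3:**
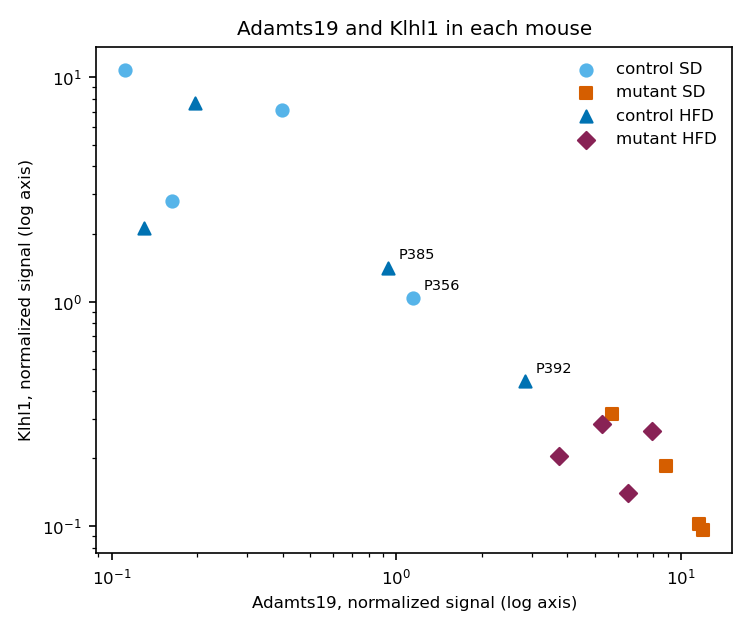
Normalized signal of *Adamts19* (horizontal, log axis) against *Klhl1* (vertical, log axis), 1 point per mouse, with colour and shape for the 4 groups. P385, P356 and P392 lie between the other 5 controls and the 8 mutants.

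The closest relatives of the members by protein sequence had no difference that passed the test in any comparison (limma). Neither did most genes: 1.84% of all tested genes passed for genotype on SD and 0% in every other comparison. *Adamts17*, 57.4% identical to *Adamts19* over the shorter protein, had 2.42 ± 1.87 in controls and 2.79 ± 0.916 in mutants on SD (SD, n = 4 each), a difference of 0.31 (adjusted p = 0.734 from limma). *Klhl5*, 67.7% identical to *Klhl1*, had 11.55 ± 1.66 and 10.1 ± 1.28 (SD, n = 4 each), a difference of -0.18 (adjusted p = 0.510 from limma). *Layn*, which encodes the hyaluronan receptor layilin and is 50.9% identical to *Chodl*, had 3.78 ± 0.588 and 2.46 ± 1.13 (SD, n = 4 each), a difference of -0.61 (adjusted p = 0.350 from limma). On HFD the differences were -0.42, -0.32 and -0.81, with adjusted p = 0.816, 0.479 and 0.458 from limma. *Adamts19* and *Klhl1* shared no stretch of 100 bp at 90% identity with any other gene.

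In the family lists, most genes did not pass with the members. The members were chosen by this difference, so their own passing is no result of the lists. Of 26 ADAMTS and ADAMTS-like genes 13 were tested, and none of the 12 other than *Adamts19* passed on SD. Without *Adamts19* the list had a median difference of -0.35, beside -0.01 over all genes. *Adamts2*, a procollagen N-proteinase chosen after its values were seen, had the next largest difference, 2.03 (SE 0.67, adjusted p = 0.119 from limma). Of 41 Kelch-like genes 37 were tested, and *Klhl1* fell while *Klhl40*, a protein of skeletal muscle sarcomeres, rose by 1.81 (SE 0.42, adjusted p = 0.0409 from limma). *Klhl40* was 0.110 ± 0.171 in controls and 1.69 ± 0.788 in mutants on SD (SD, n = 4 each). The Kelch-like median was -0.17 without *Klhl1*.

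Of 25 C-type lectin genes of the cell surface and matrix 17 were tested. Besides *Chodl*, which was chosen by its difference, 2 of the 16 others rose on SD, and their median was 0.39. These were *Mrc1*, the macrophage mannose receptor, and *Bcan*, which encodes the proteoglycan brevican. *Mrc1* was 0.922 ± 0.210 in controls and 2.44 ± 0.239 in mutants (SD, n = 4 each; difference 1.06, adjusted p = 0.0336 from limma). *Bcan* was 119.4 ± 54.2 and 224.1 ± 20.02 (SD, n = 4 each; difference 0.99, adjusted p = 0.0423 from limma). Of 20 substrates, processing enzymes and inhibitors of ADAMTS proteases 16 were tested, and *Bcan* and *Pcsk5*, a proprotein convertase, rose. *Pcsk5* was 1.02 ± 0.392 in controls and 3.54 ± 0.703 in mutants (SD, n = 4 each; difference 1.43, adjusted p = 0.0394 from limma), and the list median was 0.45. In every other comparison 0% of all tested genes passed (limma), these genes included. The lists were written with results of these data known, and the shares passing can be read only beside the 1.84% of all genes.

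**Figure D4:**
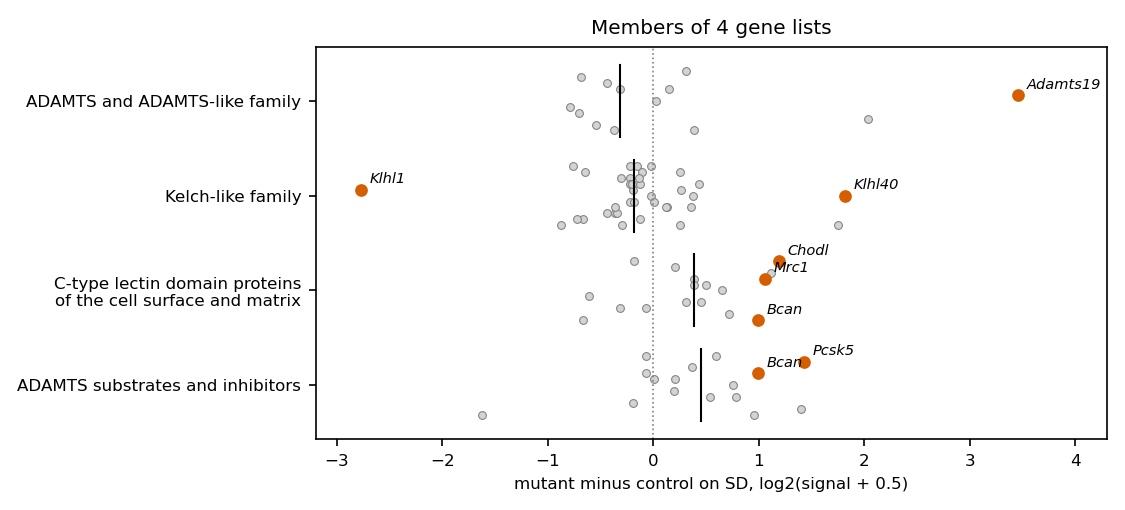
Mutant minus control difference on SD in log2(signal + 0.5) (horizontal axis) for the tested genes of 4 lists (rows). Orange points are genes with an adjusted p under 0.05 (limma), grey points the others, black lines the list medians. *Adamts19* lies at 3.46 and *Klhl1* at -2.77, while the other genes of their lists lie between -0.88 and 2.03. The members were chosen by this difference, and the medians include them.

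For each member, the 5 genes most like it were those with the smallest root mean square difference of z-scored log2 signal over the 16 mice. Nearest to *Adamts19* were *Clec2l* (0.289), *Rps7* (0.296), *Arhgap40* (0.299), *Olfm2* (0.311) and *Ppp2r2b* (0.316). *Clec2l* encodes a C-type lectin-like membrane protein, and its signal was 3.74 to 9.17 in controls and 26.2 to 46.6 in mutants on SD. In controls on HFD *Clec2l* was 3.26 to 40.3, with the highest value in P392. *Rps7*, a ribosomal protein gene with near-identical processed copies that could take part of its reads, was 37.7 to 77.0 in controls and 312.4 to 456.3 in mutants on SD.

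Nearest to *Klhl1* were *Chrna6* (0.261), *Chrnb3* (0.329), *Gpm6a* (0.345), *Lrp2bp* (0.370) and *Tmem67* (0.373). *Chrna6* and *Chrnb3* encode subunits of nicotinic acetylcholine receptors that assemble together in neurons. On SD *Chrna6* was 3.30 to 48.6 in controls and 0.898 to 2.01 in mutants, and *Chrnb3* was 4.36 to 29.4 and 1.18 to 2.14. *Gpm6a*, a neuronal membrane glycoprotein, was 28.8 to 65.7 and 22.6 to 24.2. Its signal in the controls P356, P385 and P392 lay near the mutants. That follows from the choice of genes by their likeness to *Klhl1* over the same mice. Of these 5 genes 4 lie on chromosome 8, where 5.35% of tested genes lie, and *Klhl1* itself does not. *Chrna6* and *Chrnb3* are neighbours there, from 27403212 to 27413944 and from 27368711 to 27399730 (GRCm38).

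Nearest to *Chodl* were *Tril* (0.414), *P2rx2* (0.419), *Crisp1* (0.477), *Gpx8* (0.520) and *Rgma* (0.530), all less like it than the nearest genes of the other members. *Tril* encodes a partner of Toll-like receptors, *P2rx2* a channel opened by ATP, *Crisp1* a secreted cysteine-rich protein, *Gpx8* a peroxidase of the endoplasmic reticulum and *Rgma* a guidance molecule and co-receptor for bone morphogenetic proteins. *Tril* was 4.80 to 5.97 in controls and 6.35 to 7.93 in mutants on SD, and 4.22 to 5.65 and 6.88 to 8.24 on HFD. *Crisp1* was 1.40 to 3.59 in controls and 2.54 to 37.4 in mutants on SD, which overlapped, and 0.708 to 3.99 and 8.99 to 47.0 on HFD. *Adamts19* was 25th in the order of likeness to *Chodl*, and *Chodl* was 414th in the order for *Adamts19*.

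**Figure D5:**
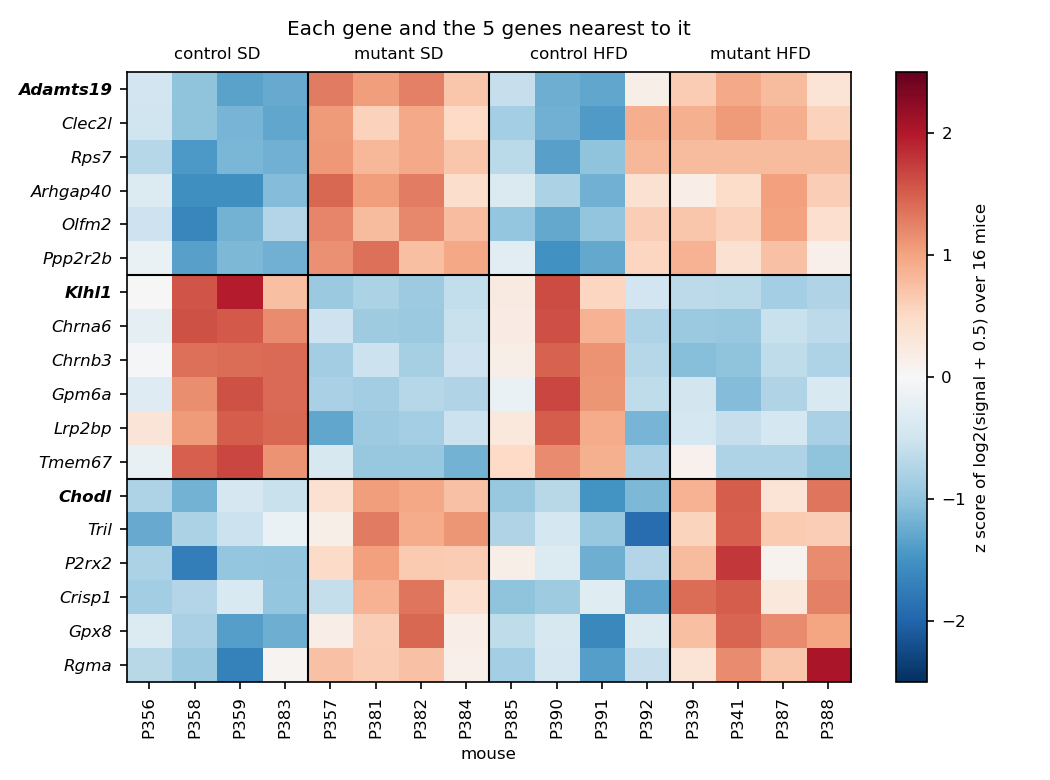
z-scores of log2(signal + 0.5) over 16 mice (colour) for *Adamts19*, *Klhl1* and *Chodl*, each above the 5 genes nearest to it, with mice in columns by group. In the rows of *Adamts19* and *Klhl1* the controls P356, P385 and P392 lie between the other controls and the mutants, and in the *Chodl* row they lie with the controls.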

How the data were processed

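RNA from the pituitaries was sequenced by the authors (NEBNext Ultra II RNA libraries, NovaSeq), and the submitters' processing notes name kallisto, sleuth and mm10. Tool versions, the annotation and the use of strand are not given in the sources used here. The deposited table holds a normalized expression signal per gene and mouse, which the authors derived with kallisto in gene mode; the values are not counts, and the total reads per library are not given. Signals summed to 908897 to 1335782 per mouse. Of 17362 genes, 17351 were paired with a symbol, and positions come from GENCODE M21 (GRCm38).

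In R 4.3.3, limma 3.58.1 was fitted to log2(signal + 0.5) of 14345 genes whose mean over 16 mice was 1 or more. The model had a mean for each group and eBayes used a trend. P-values were adjusted by Benjamini-Hochberg separately for every comparison, and 0.05 was the threshold. Genotypes were compared on SD and on HFD, diets were compared in controls and in mutants, and the interaction was tested. The authors' own test needs estimates that are not used here, and was not repeated. Single genes were compared with exact permutation tests. Simulated data with known changes were used to test the fit. Shared sequence was searched with BLAST 2.17.0, and other steps used Python 3.11.15, numpy 2.4.6, pandas 2.3.3 and scipy 1.17.1. Estimated reads come from low values of at most 5 reads in genes with 1 transcript of at least 1500 bp, and cover counting error only.

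The 3 members and all gene and marker lists were chosen with earlier results of these data known. Genes named are the members, *Esr1*, list members that passed, the closest paralog of each member and the 5 tested genes most like each member, together with *Prl* and other marker genes, 2 genes that overlap *Klhl1*, and *Adamts2*, which was chosen after its values were seen. Replicates are separate mice. Alternatives were other filters, pseudocounts and scalings, eBayes without trend, only the 8 mice compared, 2 covariates, a threshold of 0.01, and leaving out mice.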

Additional observations from a re-analysis of the deposited data

Results flagged for a closer look

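In 128 sets of 4 mice (a gene or marker score in a group), 16 held a mouse that stood apart. Its gap to the nearest of the others passed the 95% critical value of Dixon's test. For independent values of normal spread about 6.4 sets would pass. Gene signals were taken without logs, and many of these genes were picked for likeness to the members or for passing. The 16 sets can thus not be read as an excess over 6.4. None of the 16 was a value of *Adamts19*, *Klhl1* or *Chodl*. Of the 16, 5 were in P392, 5 in P356 and 3 in P357.

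In P392, a control on HFD, *Clec2l* was 40.3 (3.26 to 6.25 in the other 3), *Rps7* 357.9 (40.5 to 80.8), *Olfm2* 20.7 (6.30 to 7.74), *Pcsk5* 3.82 (0.930 to 1.13) and the posterior lobe score 0.827 (2.45 to 2.60). *Clec2l*, *Rps7* and *Olfm2* were picked for their likeness to *Adamts19*, which was also highest in P392 among controls. This match follows from that choice. *Chrnb3* and *Ppp2r2b*, named next, were likewise picked for their likeness to *Klhl1* and to *Adamts19*. In P356, a control on SD, *Chrnb3* was 4.36 (28.4 to 29.4), *Bcan* 200.5 (87.7 to 95.9), *Klhl40* 0.365 (0 to 0.0470), *Ppp2r2b* 22.2 (15.6 to 16.7) and the immune score 2.35 (2.74 to 2.77). In P357, a mutant on SD, *Esr1* was 10.02 (20.5 to 22.2), the intermediate lobe score 1.34 (4.19 to 4.50) and the posterior lobe score 0.898 (2.60 to 2.81). Single sets were also apart for *Adamts17* in the control P383 (5.18 against 1.06 to 1.75), *Tril* in the mutant P341 on HFD (8.24 against 6.88 to 7.01) and the immune score of the mutant P384 on SD (4.52 against 3.07 to 3.21).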

How the results depend on the processing

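No paired analysis was possible because the labels give animal numbers only and no replicate numbers shared between groups. No member had a mean of at least 5, so that filter gave no value for them. The directions of all 6 genotype differences were kept under every alternative that gave a value, but not their side of the threshold. On SD *Klhl1* did not pass in 7 of 16 fits without 1 mouse (P358, P359, P383 or any of the 4 mutants) nor with the animal-number range or the lobe score as covariate, and *Chodl* did not in 6 of 16 (P358, P359, P383, P381, P382 or P384). On HFD all 3 members passed without P392 and without both P357 and P392, *Adamts19* and *Chodl* with the lobe score, and *Chodl* also with no filter, at a mean of at least 0.1, without trend and without P387. With a pseudocount of 0.1 the SD differences were 4.43 (*Adamts19*), -3.94 (*Klhl1*) and 1.71 (*Chodl*), and the HFD differences of *Adamts19* and *Chodl* were 3.09 and 2.43. With a pseudocount of 1 those of *Chodl* were 0.88 on SD and 1.20 on HFD. Diet differences of members passed under no alternative and changed sign in 4 fits: *Adamts19* in controls was -0.035 without P392 and -0.035 without both P357 and P392, and *Klhl1* in mutants was -0.22 under quantile normalization and -0.22 with the lobe score as covariate. The cause was not tested.

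Leaving out each mouse in turn gave 3.29 to 3.76 on SD and 2.04 to 2.85 on HFD for *Adamts19*, -3.30 to -2.34 and -2.26 to -1.22 for *Klhl1*, and 1.07 to 1.29 and 1.51 to 1.81 for *Chodl*. In controls the diet differences ranged from -0.035 to 0.77 (*Adamts19*), -1.44 to -0.41 (*Klhl1*) and -0.38 to -0.15 (*Chodl*), and in mutants from -0.86 to -0.47, 0.05 to 0.21 and 0.06 to 0.36. The interactions ranged from -1.42 to -0.61, 0.52 to 1.55 and 0.32 to 0.62.

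Genes passing on SD (264) numbered 151 at a mean of at least 5, 117 with the lobe score as covariate, 953 without P357 and P392, 20 at an adjusted p under 0.01, and 33 (without P382) to 826 (without P356) when single mice were left out. On HFD the count of 0 became 1 with no filter, 1 at a mean of at least 0.1, 1 without trend, 131 with the lobe score, 1050 without P357 and P392, and 0 to 649 (without P392) when single mice were left out. For diet in controls it became 1 without P357 and P392 and 0 to 6 when single mice were left out, for diet in mutants 2 with only the 8 mice compared and 0 to 1, and for the interaction 0 to 1. Genes with no overlap over all mutants and controls rose from 62 to 880 without P357 and P392. Of the 5 genes most like each member, 1 was shared when deviations from group means were used. Total depth per library is unknown, which limits what can be said of low values.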
